A study of Mus musculus with 12 samples.

Results

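The transcripts of 10 acute phase genes were measured in neonatal mouse lung, namely the serum amyloid A genes Saa1, Saa2 and Saa3, the orosomucoid genes Orm1 and Orm2, and Lcn2, Hp, Lrg1, Cp and Ptx3. They were picked by gene symbol from the 52550 genes of the count table, all 10 were found, and all 10 passed the filter on low counts, Saa2 only through the Adm+/- LPS libraries and Saa1 and Orm1 only through LPS libraries. The choice was made with the rise after endotoxin in view, above all that of Saa3, so the LPS against PBS values of these 10 genes are given as a description and carry no test. The comparisons between genotypes within a treatment were not used in the choice and are tested, although they share libraries with the LPS against PBS values. The difference in LPS response between genotypes is built from the LPS against PBS values and is described in the same way as they are.

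The libraries came from whole lungs of C57Bl/6J mice on postnatal day 5, each mouse giving 1 library, and 4 groups of 3 mice were formed. Mice of the WT genotype (Adm+/+) and Adm+/- mice, which keep 1 functional copy of the gene for the vasoactive peptide adrenomedullin, received either lipopolysaccharide (LPS, an endotoxin of Escherichia coli O55:B5) at 6 mg/kg or phosphate-buffered saline (PBS) into the peritoneum. All 4 groups were injected 3 times, once a day from postnatal day 3, and lung tissue was collected 6 h after the third injection. The design asks how the lung responds to LPS in each genotype and whether the response differs between them, in a model of bronchopulmonary dysplasia, the chronic lung disease of preterm infants.

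Acute phase proteins are plasma and tissue proteins whose synthesis changes quickly in infection or injury. Cytokines such as interleukin-6 and interleukin-1 drive them through the transcription factors STAT3, C/EBP and NF-kappa B, and the liver is the main source of most of them. Some, among them Saa3, Lcn2 and Ptx3, are known also as products of epithelial cells, macrophages, neutrophils or stromal cells at the inflamed site. A count from whole lung cannot separate more cells of a type from more RNA per cell.

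Total counts ranged from 22382535 to 38062873 per library, with a median of 28494877. The 10 genes took 0.0245% to 0.0566% of the counts in WT PBS and 0.118% to 0.309% in WT LPS. In Adm+/- lungs the share was 0.0249% to 0.0295% after PBS and 0.359% to 0.455% after LPS. Levels are given as CPM, counts scaled to a common library total, normalized by TMM. The targeted gene Adm had a mean of 5.21 CPM in WT PBS, 6.79 in WT LPS, 3.69 in Adm+/- PBS and 4.65 in Adm+/- LPS, with overlapping ranges between the genotypes in both treatments. Some libraries stood apart. Protein-coding genes took 77.8% of the counts of WT PBS replicate 5 and 80.1% of those of Adm+/- PBS replicate 6, and 84.3% to 87.6% in the other libraries. All 3 WT LPS libraries held transcripts of skeletal muscle (558 to 1628 CPM summed over 7 markers, at most 32.1 in any other library), and 2 of them held 1518 and 2932 CPM of squamous epithelium markers against at most 39.8 outside the group. Lung identity was plain in every library, with 12808 to 16488 CPM summed over 6 type II pneumocyte markers.

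The promoters of 4 members are shown first, because the factors named above read short DNA motifs. These 4 were picked for large changes after LPS, the values behind the choice of the genes, so nothing on shared control is read from them. The 250 bases before the RefSeq start of Saa1, Saa2, Saa3 and Lcn2 are printed 5′ to 3′ on the strand of the gene (RefSeq windows on GRCm38.p6, the build of mm10), with matches to the C/EBP motif TTGCNNAA on either strand in capitals.
Saa1, chr7:46742981-46743230, minus strand: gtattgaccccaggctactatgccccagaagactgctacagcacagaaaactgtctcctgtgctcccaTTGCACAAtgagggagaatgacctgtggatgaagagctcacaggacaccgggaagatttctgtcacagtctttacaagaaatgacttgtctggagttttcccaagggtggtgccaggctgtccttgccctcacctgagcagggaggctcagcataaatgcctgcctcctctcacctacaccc
Saa2, chr7:46751583-46751832, plus strand: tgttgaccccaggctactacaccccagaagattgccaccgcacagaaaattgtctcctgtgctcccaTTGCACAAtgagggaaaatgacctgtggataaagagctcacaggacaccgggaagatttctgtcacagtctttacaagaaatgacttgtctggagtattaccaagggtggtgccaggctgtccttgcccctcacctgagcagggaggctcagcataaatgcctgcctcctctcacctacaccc
Saa3, chr7:46715677-46715926, minus strand: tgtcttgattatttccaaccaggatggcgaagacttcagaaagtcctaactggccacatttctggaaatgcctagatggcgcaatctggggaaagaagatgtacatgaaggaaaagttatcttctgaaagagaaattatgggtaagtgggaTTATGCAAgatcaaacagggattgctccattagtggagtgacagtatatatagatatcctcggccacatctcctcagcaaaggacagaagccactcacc
Lcn2, chr2:32387740-32387989, minus strand: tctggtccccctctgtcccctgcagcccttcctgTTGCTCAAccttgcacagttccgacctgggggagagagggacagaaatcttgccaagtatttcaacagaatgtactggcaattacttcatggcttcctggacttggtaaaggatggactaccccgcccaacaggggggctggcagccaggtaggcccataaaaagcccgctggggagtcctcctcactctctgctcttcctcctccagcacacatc
The match starts 182 bases before the start of Saa1, 183 before Saa2, 99 before Saa3, where it is read on the opposite strand, and 216 before Lcn2. Windows of 300 bases, 250 before and 50 after the start, were found for 8 of the 10 members, all except Orm1 and Hp, so Orm1, whose change exceeded that of Lcn2, is not shown. TTGCNNAA was present in 7 of these 8 members, the exception being Lrg1, and in 10.8% of all 32851 windows of the same length. Members are counted with a match in any of their windows, while the shares are per window, over 27025 gene symbols. The 2 measures are thus not fully alike. Cp had 2 windows, and only 1 of them held its matches. In Orm2, Cp and Ptx3 the match began 120, 70 and 57 bases before the start. The STAT motif TTCNNNGAA was in 0 of the 8 members and 8.3% of all windows, the NF-kappa B consensus in 1 (Ptx3) and 8.46%, and TATAAA in 3 (Orm2, Lrg1 and Cp) and 13.6%. The Saa1 and Saa2 windows were 95.7% identical over 300 bases, so their matches are not separate observations, and a match says only that these letters stand in the window.

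The serum amyloid A genes encode small apolipoproteins of high-density lipoprotein that also act on leukocytes, and they lie together on chromosome 7 of mm10. Saa3 (ENSMUSG00000040026) is at chr7:46711998-46715700, Saa1 (ENSMUSG00000074115) at chr7:46740497-46742980 and Saa2 (ENSMUSG00000057465) at chr7:46751790-46754313. Saa3, the form made outside the liver in mice, had 1.24, 38.1 and 1.61 CPM in WT PBS replicates 3, 4 and 5. In the WT LPS libraries, numbered 9, 10 and 11, it had 1193, 934 and 313 CPM. Values were 1.58, 1.05 and 0.835 CPM in the Adm+/- PBS libraries 6, 7 and 8, and 1572, 1329.7 and 1561 CPM in the Adm+/- LPS libraries 1, 2 and 12. The LPS libraries were thus far above the PBS libraries in both genotypes without overlap, all 3 Adm+/- LPS values were above all 3 WT LPS values, and WT PBS replicate 4 stood at 26.7 times the mean of the other WT PBS libraries. The fitted log2 fold change after LPS was 5.90 ± 1.10 (standard error) in WT mice, the 50th largest rise of 15885 genes, and 10.36 ± 1.37 in Adm+/- mice, the 2nd largest. Without WT PBS replicate 4 the WT value was 9.18.

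Saa1, a main plasma form, was close to undetected after PBS and stayed low after LPS. Its counts were 0, 7 and 1 in WT PBS, 70, 59 and 14 in WT LPS, 0, 3 and 0 in Adm+/- PBS, and 82, 106 and 99 in Adm+/- LPS. For Saa2, the other plasma form, they were 0, 3 and 0, then 19, 16 and 2, then 1, 1 and 1, and 46, 27 and 27 in the same order. All Adm+/- LPS libraries were above all WT LPS libraries for both genes, and WT LPS replicate 11 was the lowest of its group for both. The ratio of summed counts, scaled to depth, after LPS in Adm+/- mice was 89.7 for Saa1 (95% interval 30.4 to 437) and 31.3 for Saa2 (10.4 to 154), intervals that cover counting error only and rest on 3 PBS counts for each gene. In WT mice the ratio was 13.7 for Saa1 (6.77 to 32.3) and 9.45 for Saa2 (2.99 to 47.9), and WT PBS replicate 4 held 7 of the 8 Saa1 counts and all 3 Saa2 counts behind it. Without that library the fitted log2 fold change in WT mice went from 3.69 to 5.89 for Saa1 and from 3.09 to 6.50 for Saa2, values that rest on 1 and 0 PBS counts. The first annotated transcripts of Saa1 and Saa2 were 93.9% identical with a shared run of 99 bases, so the split of reads between them is uncertain, while they were 68.2% and 67.7% identical to that of Saa3. Saa4, which lies between Saa3 and Saa1 and is not among the 10 genes, had 8 counts in WT PBS, 45 in WT LPS, 1 in Adm+/- PBS and 145 in Adm+/- LPS.

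**Figure D1:**
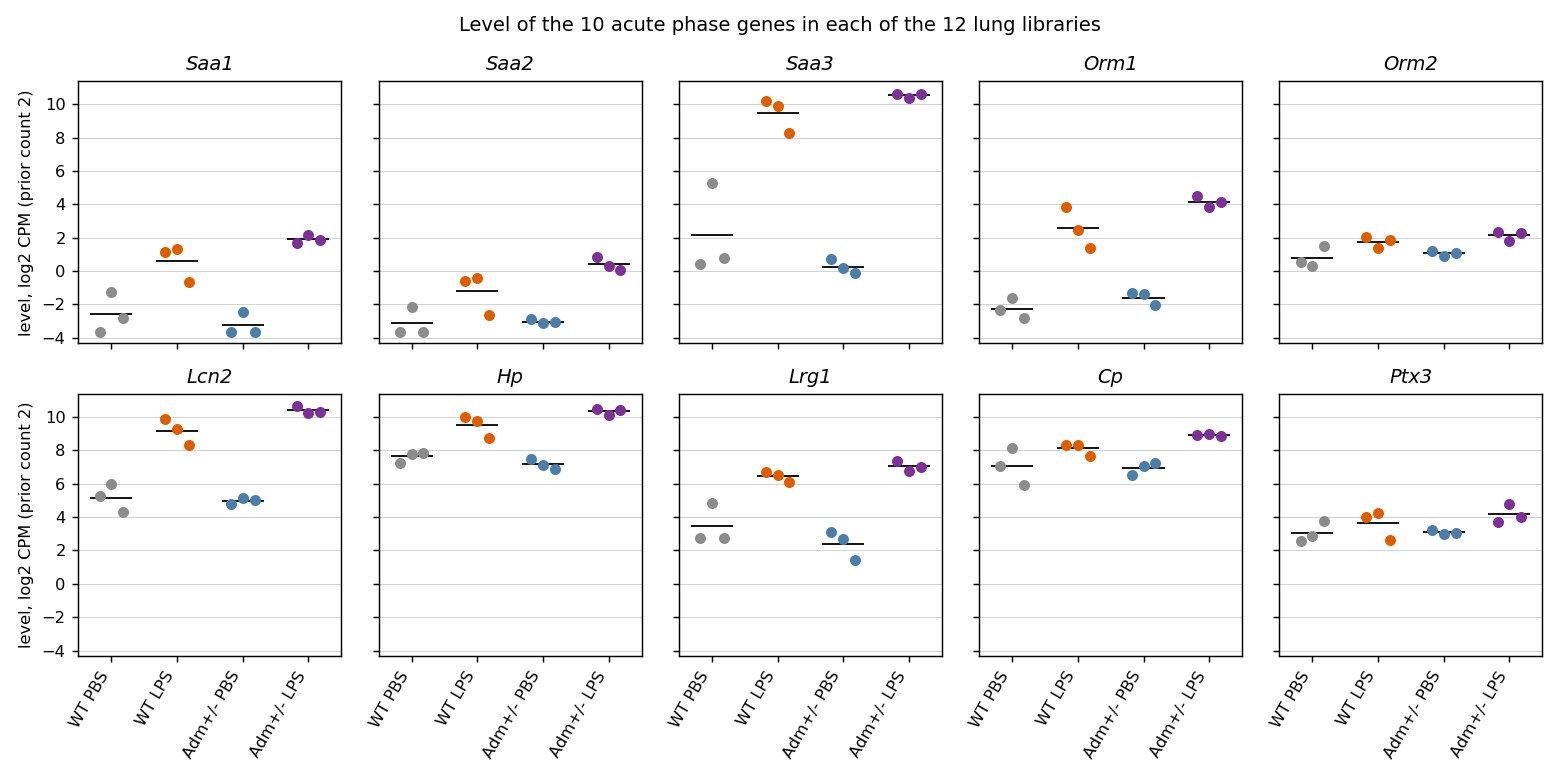
Level of each of the 10 genes (vertical axis, log2 CPM with a prior count of 2) in the 12 libraries, grouped by genotype and treatment. Each point is 1 library and each bar the mean of 3. In Adm+/- mice the LPS points lie above the PBS points for all 10 genes, and WT PBS replicate 4, the middle grey point, stands apart for Saa3 and Lrg1.

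Orosomucoids are abundant plasma glycoproteins of the lipocalin family that bind drugs and dampen immune reactions, and they lie together on chromosome 4. Orm1 (ENSMUSG00000039196, chr4:63344560-63348163) had 0.116, 0.243 and 0.0618 CPM in WT PBS and 14.4, 5.32 and 2.51 CPM in WT LPS. In Adm+/- lungs it had 0.316, 0.304 and 0.159 CPM after PBS and 22.9, 14.03 and 17.3 CPM after LPS. The treatments did not overlap in either genotype, the lowest Adm+/- LPS library was just under the highest WT LPS library, and the WT LPS libraries spread over 5.74-fold. The log2 fold change after LPS was 5.65 ± 0.74 in WT, or 4.71 without replicate 9, its highest WT LPS library, and 6.10 ± 0.66 in Adm+/- mice.

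Orm2 (ENSMUSG00000061540, chr4:63362449-63365878) moved far less. It had 1.36, 1.16 and 2.72 CPM in WT PBS, 3.98, 2.50 and 3.62 CPM in WT LPS, 2.21, 1.82 and 2.03 CPM in Adm+/- PBS, and 5.05, 3.35 and 4.77 CPM in Adm+/- LPS. The WT groups overlapped and the Adm+/- groups did not. Its log2 fold change was 0.97 ± 0.31 in WT and 1.12 ± 0.31 in Adm+/- mice. The Orm1 and Orm2 transcripts were 91.0% identical with a shared run of 141 bases, and reads of the 2 genes may have been split between them. Orm3, the neighbour between them and not among the 10 genes, had means of 0.608, 1.74, 0.784 and 4.10 CPM in WT PBS, WT LPS, Adm+/- PBS and Adm+/- LPS.

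Lcn2 (ENSMUSG00000026822, chr2:32384633-32388252) encodes lipocalin 2, which starves bacteria of iron by binding their siderophores. It had 38.4, 62.4 and 19.3 CPM in WT PBS and 958, 627 and 323 CPM in WT LPS. The Adm+/- values were 27.1, 35.9 and 31.7 CPM after PBS and 1632, 1187 and 1275 CPM after LPS. No LPS library overlapped a PBS library, and the lowest Adm+/- LPS library was above the highest WT LPS library. The log2 fold change after LPS was 3.99 ± 0.45 in WT and 5.43 ± 0.48 in Adm+/- mice.

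Haptoglobin, the product of Hp (ENSMUSG00000031722, chr8:109575128-109579172), captures free haemoglobin. Per kilobase of transcript it was the most abundant member after PBS. It had 151, 223 and 233 CPM in WT and 178, 141 and 119 CPM in Adm+/- lungs. After LPS it had 1012, 865 and 428 CPM in WT and 1429, 1117 and 1346 CPM in Adm+/- lungs. Treatments were separate in both genotypes and, after LPS, so were the genotypes. The log2 fold change was 1.92 ± 0.29 in WT and 3.15 ± 0.30 in Adm+/- mice.

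Lrg1 (ENSMUSG00000037095, chr17:56119678-56122001) encodes a leucine-rich glycoprotein that modifies TGF-beta signalling in blood vessels. Its levels were 6.52, 28.7 and 6.67 CPM in WT PBS and 102, 91.6 and 69.4 CPM in WT LPS. They were 8.52, 6.22 and 2.62 CPM in Adm+/- PBS and 164, 109 and 129 CPM in Adm+/- LPS. As for Saa3, WT PBS replicate 4 was high, at 4.35 times the mean of the other WT PBS libraries. Lrg1 was 2.65 ± 0.54 higher after LPS on the log2 scale in WT, or 3.73 without that library, and 4.55 ± 0.60 higher in Adm+/- mice.

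Cp (ENSMUSG00000003617, chr3:19957054-20009145) encodes ceruloplasmin, a copper-carrying ferroxidase that lets iron leave cells. Its WT PBS libraries spread from 61.7 over 134 to 283 CPM, replicate 4 again being the highest, and WT LPS had 324, 322 and 201 CPM, the last of them inside that range. In Adm+/- lungs it had 92.1, 135 and 151 CPM after PBS and 483, 503 and 457 CPM after LPS, which is 1.10-fold from lowest to highest and the narrowest spread of any member in any group. The log2 fold change was 0.82 ± 0.41 in WT, or 1.53 without WT PBS replicate 4, and 1.93 ± 0.43 in Adm+/- mice. Ptx3 (ENSMUSG00000027832, chr3:66219910-66225805) encodes a long pentraxin that marks microbes for uptake and is made at the site of inflammation. It had 5.82, 7.18 and 13.7 CPM in WT PBS, 15.6, 19.1 and 6.13 CPM in WT LPS, 9.31, 7.94 and 8.07 CPM in Adm+/- PBS and 13.1, 27.4 and 16.2 CPM in Adm+/- LPS. The WT groups overlapped widely, and the log2 fold changes of 0.63 ± 0.42 in WT and 1.16 ± 0.42 in Adm+/- mice were the smallest and the second smallest among the members of their genotype. Cp overlaps Hps3 and Ptx3 overlaps Veph1 on the opposite strand, and the strand setting of the counting is not given in the sources used here, so part of their counts may belong to those genes.

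**Figure D2:**
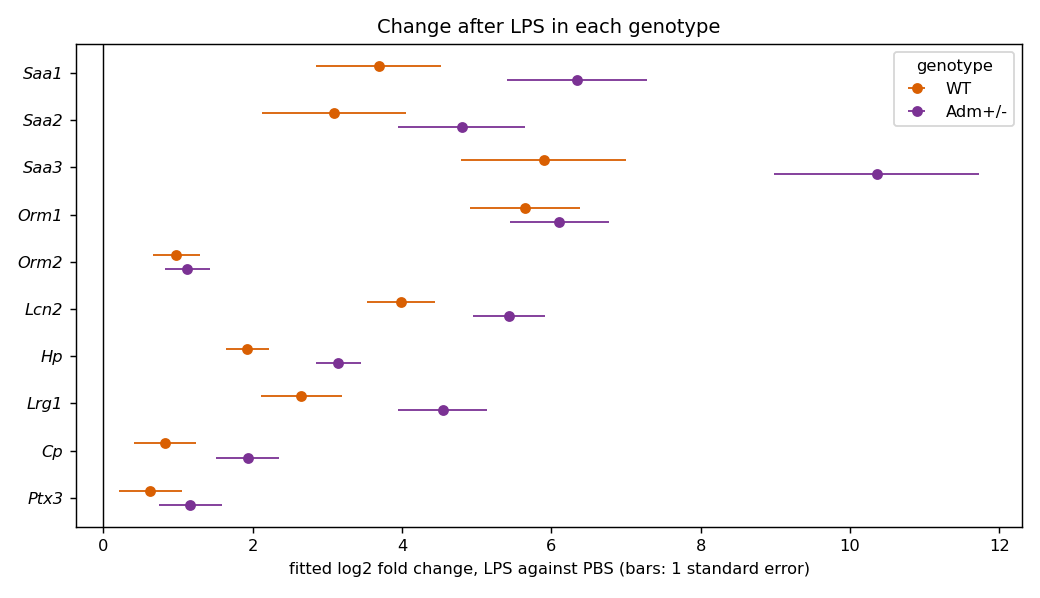
Fitted log2 fold change of each gene after LPS against PBS (horizontal axis) in WT and Adm+/- mice. Points are estimates from all 12 libraries and bars are 1 standard error. Values range from 0.63 for Ptx3 in WT to 10.36 for Saa3 in Adm+/- mice, and the Adm+/- point lies to the right of the WT point for every gene.

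Called as changed were genes with a Benjamini-Hochberg adjusted p below 0.05 over 15885 tested genes in edgeR's quasi-likelihood test and an absolute log2 fold change above 0.5. Of the 10 members, 8 were called higher after LPS in WT mice (all but Cp and Ptx3) and 9 in Adm+/- mice (all but Ptx3), with none lower. Over all tested genes 10.5% were called higher and 7.09% lower in WT, and 12.8% higher and 12.2% lower in Adm+/- mice. The members' median log2 fold change was 2.87 in WT and 4.67 in Adm+/- mice, against 0.01 and -0.01 over all genes, and that of WT was 4.09 without WT PBS replicate 4. All 3 LPS libraries were above all 3 PBS libraries for 6 members in WT mice, where 18.3% of all tested genes did so, and for all 10 in Adm+/- mice, where 26.6% did. As the genes were selected on this contrast, nothing is read from these counts. With the 6 WT libraries fitted on their own the WT count was 5 of the 9 members that passed the filter there (not Saa2). In that fit 7.389% of all genes were called in either direction. Without the 2 PBS libraries of low coding share the counts were 7 in WT and 9 in Adm+/- mice, beside 15.31% and 24.35% of all genes called in either direction.

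Expressed per kilobase of the first annotated transcript, the order of levels in Adm+/- LPS lungs was Saa3 (2680.4 ± 247 CPM per kilobase, SD, n = 3), Lcn2 (1491 ± 258), Hp (964 ± 120.1), Cp (117 ± 5.65), Lrg1 (95.2 ± 19.6), Orm1 (23.3 ± 5.78), Ptx3 (9.96 ± 3.94), Saa1 (6.04 ± 1.15), Orm2 (5.67 ± 1.18) and Saa2 (2.098 ± 0.66). Cp and Lrg1 differed by little more than the SD of Lrg1, Saa1 and Orm2 did not differ beyond their spread, and Ptx3 exceeded both by about its own SD. Per kilobase of all annotated exons, retained introns included, Hp came first (808 ± 101), ahead of Saa3 (571 ± 52.5) and Lcn2 (520.3 ± 89.8), so the order among these 3 depends on the length used. In WT LPS lungs the first 3 by transcript were the same genes in the same order, at 1465 ± 814, 695 ± 347 and 571 ± 226 CPM per kilobase. Lcn2 and Hp did not differ beyond their spread, and Saa3 exceeded Lcn2 by less than its own SD.

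Marker transcripts of cells that could carry the members also changed after LPS, and cell numbers were not measured. The 14 neutrophil markers summed to 60.2 to 188 CPM in WT PBS and 1705 to 2970.5 CPM in WT LPS, and to 41.2 to 69.0 CPM in Adm+/- PBS and 1610.2 to 1928 CPM in Adm+/- LPS. Of the 13 tested, 12 were called higher in WT and 13 in Adm+/- mice. Over all tested genes 10.5% were called higher and 7.09% lower in WT, and 12.8% higher and 12.2% lower in Adm+/- mice. Neutrophils hold Lcn2, Hp, Lrg1 and Ptx3 in their granules, and the part of neutrophil number in the levels after LPS was not tested. The neutrophil sum was not higher in Adm+/- LPS than in WT LPS, since all but the highest WT LPS value lay within 1610.2 to 1928 CPM. WT PBS replicate 4, with the high Saa3 and Lrg1, had 188 CPM of neutrophil markers against 60.2 and 62.6 CPM in the other WT PBS libraries. Of 10 monocyte and macrophage markers, 9 were called higher in WT and 8 in Adm+/- mice. Among epithelial cells, the sum of 5 club and ciliated cell markers was 1316 to 2319 CPM in WT PBS and 2438 to 2672 CPM in WT LPS, and 1281 to 2085 CPM in Adm+/- PBS and 2518 to 2866 CPM in Adm+/- LPS, without overlap between treatments. Single markers moved unevenly, with 1 called higher in WT (Cyp2f2, 0.79) and 1 lower in Adm+/- mice (Tppp3, -0.77), and the club cell genes Scgb1a1 and Scgb3a2 at 0.56 to 1.02, not called. Of 6 type II pneumocyte markers none was called in WT and 2 were called higher in Adm+/- mice. The sum of 5 lung fibroblast markers was 10535 to 30508 CPM in WT PBS and 6706 to 10061 CPM in WT LPS. In Adm+/- lungs it was 10002 to 20288 CPM after PBS and 7486 to 9079 CPM after LPS. Of single fibroblast markers, 1 was called higher in WT and 1 lower in Adm+/- mice. Endothelial cell markers summed to 2345 to 2841 CPM in WT PBS and 1961 to 2109 CPM in WT LPS, and overlapped between treatments in Adm+/- mice. The 14 hepatocyte markers stayed low in all libraries, with sums of 9.70 to 28.2 CPM in WT PBS, 34.02 to 100.6 in WT LPS, 12.8 to 41.8 in Adm+/- PBS and 30.4 to 49.5 in Adm+/- LPS. Of the 11 that could be tested, 5 were called higher after LPS in WT and 3 in Adm+/- mice, and Fabp1, Apoc3 and Serpina1a had too few counts to be tested. After LPS albumin (Alb) averaged 30.5 CPM in WT and 15.3 CPM in Adm+/- lungs, below Hp by a wide margin in every group.

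**Figure D3:**
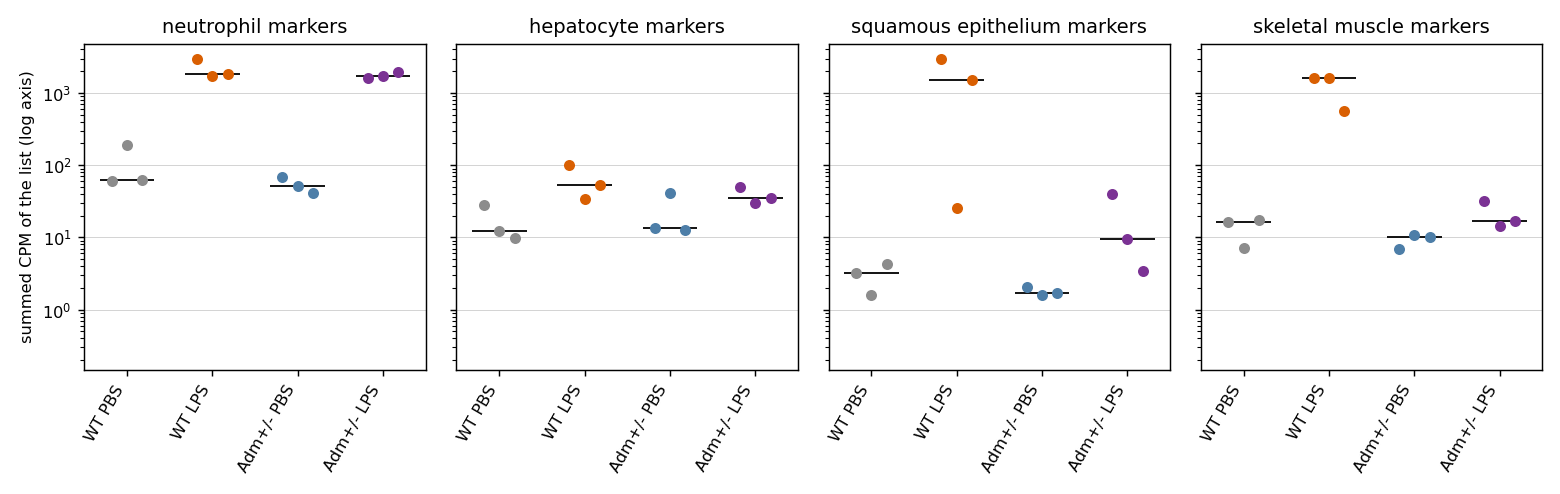
Summed CPM of 4 marker lists (vertical log axis) in the 12 libraries, grouped by genotype and treatment. Points are libraries and bars are medians of 3. Neutrophil sums are at least 1610.2 CPM in all 6 LPS libraries and at or below 188 CPM in all PBS libraries, hepatocyte sums reach at most 100.6 CPM, the muscle sums are at least 558 CPM in WT LPS libraries and at most 32.1 CPM elsewhere, and 2 WT LPS libraries stand out in the squamous sums.

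How far the LPS response differed between genotypes was given by the interaction term, the log2 fold change in Adm+/- minus that in WT mice. Its values are not independent of the choice of the genes, and nothing is read from the counts called. It was above 0 for all 10 members, with a median of 1.33 against -0.01 over all genes, and 0 of the 10 were called by edgeR, DESeq2 or limma-voom. Over all genes, 0.145% were called. At an unadjusted p below 0.05, edgeR had 4 members (Hp, Saa3, Lrg1 and Lcn2) of 10, and 7.85% of all tested genes. The difference was 4.46 for Saa3 (95% interval 1.09 to 7.84), 1.90 for Lrg1 (0.18 to 3.62), 1.44 for Lcn2 (0.13 to 2.76) and 1.22 for Hp (0.31 to 2.14). For Saa1 it was 2.66 (-0.91 to 6.24), for Saa2 1.71 (-2.20 to 5.62) and for Cp 1.11 (-0.23 to 2.46). Ptx3, Orm1 and Orm2 had 0.53 (-0.83 to 1.90), 0.45 (-2.42 to 3.33) and 0.15 (-0.86 to 1.16). With intervals this wide, neither a sizeable difference nor none can be read from these values.

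Single libraries decided the size of several of these differences, above all WT PBS replicate 4. Without WT PBS replicate 4, that of Saa3 was 1.18, of Saa1 0.46, of Lrg1 0.81 and of Cp 0.41, and Saa2 and Orm1 turned to -1.70 and -0.12. Hp (1.15), Lcn2 (0.98), Ptx3 (0.66) and Orm2 (0.37) kept their sign, and the median of the 10 was 0.56. The high values of this library for Saa1 (7 counts against 0 and 1), Saa3, Lrg1 and Cp raised the WT PBS mean and with it lowered the WT response. Other libraries moved single genes. The Saa1 difference was 5.80 without Adm+/- PBS replicate 7, which held all 3 PBS counts of the gene in Adm+/- mice. That of Ptx3 was 0.10 without WT PBS replicate 5, 0.17 without Adm+/- LPS replicate 2, 0.19 without WT LPS replicate 11 and 0.85 without WT LPS replicate 10. The small differences of Orm1 and Orm2 moved by more than 1.5 times with most of the libraries of their groups, between -0.12 and 1.39 for Orm1 and between -0.28 and 0.37 for Orm2.

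**Figure D4:**
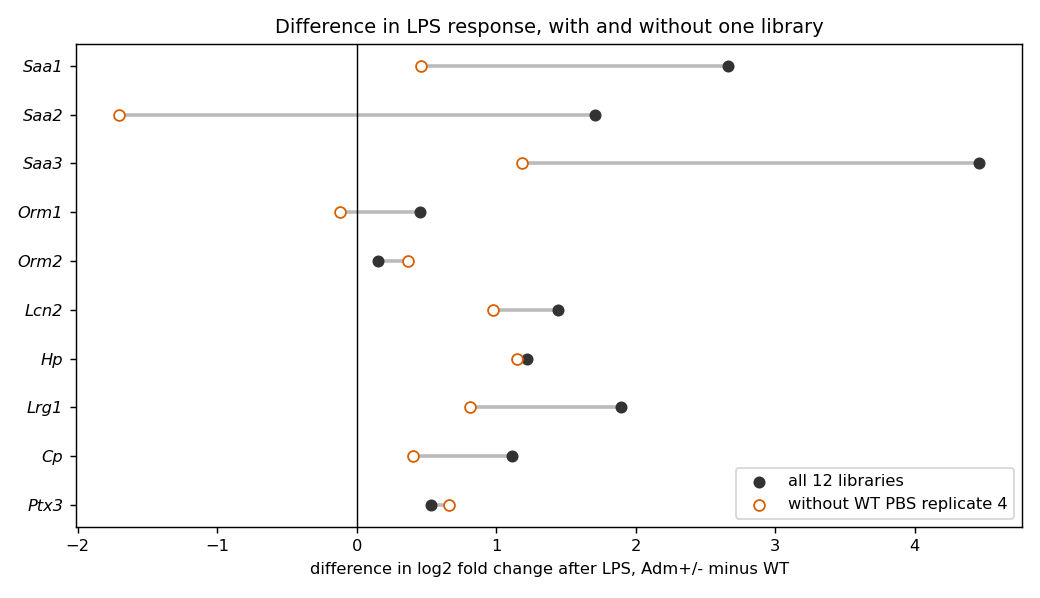
Difference in the log2 fold change after LPS, Adm+/- minus WT (horizontal axis), for each gene, fitted with all 12 libraries (filled points) and without WT PBS replicate 4 (open points). The Saa3 difference falls from 4.46 to 1.18, Saa2 moves from 1.71 to -1.70, and Hp stays at 1.22 and 1.15.

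Between LPS-treated lungs, which share no library with the PBS groups, all 10 members had a higher mean in Adm+/- than in WT mice. These libraries also entered the LPS against PBS values used in the choice of the genes. The comparison is thus not fully independent of that choice. The filter favoured a higher Adm+/- mean for Saa2, which passed it only with the Adm+/- LPS libraries. Saa2 is therefore left out of the median, of the count by unadjusted p and of the comparison of single libraries with all genes. The median log2 fold change of the other 9 was 0.77 against 0.00 over all genes. For Saa1, Saa3, Lcn2, Hp, Lrg1 and Cp the 3 Adm+/- libraries were above the 3 WT libraries, as they were for 12.2% of all tested genes. Saa2 had the same order, given as a description, and Orm1, Orm2 and Ptx3 overlapped. None of the 10 was called in edgeR, DESeq2 or limma-voom, while 2.05% of all genes were called, and 3 of the 9 had an unadjusted p below 0.05 in edgeR (Lcn2, Hp and Orm1), as did 14.3% of all genes. The fold change on the log2 scale was 1.50 for Saa2 (95% interval 0.15 to 2.84), given as a description. It was 1.28 for Orm1 (0.18 to 2.37, edgeR adjusted p = 0.222), 1.10 for Lcn2 (0.17 to 2.03, adjusted p = 0.212) and 0.76 for Hp (0.11 to 1.40, adjusted p = 0.220). It was 1.09 for Saa1 (-0.25 to 2.42), 0.87 for Saa3 (-1.17 to 2.92), 0.77 for Cp (-0.18 to 1.72), 0.61 for Lrg1 (-0.55 to 1.77), 0.47 for Ptx3 (-0.48 to 1.42) and 0.38 for Orm2 (-0.30 to 1.06), with adjusted p from 0.451 to 0.783. Orm1 was the only member ever called here when single libraries were left out, at 2.21 (edgeR adjusted p = 0.0123) without WT LPS replicate 9, its highest WT LPS library. Without WT LPS replicate 11, the lowest of its group for 9 members, the values stayed above 0 and the median of the 9 fell to 0.49, with Saa3 at 0.49, Hp at 0.47, Saa1 at 0.67 and Ptx3 at 0.12. Ptx3 was at 0.11 without Adm+/- LPS replicate 2 and 0.79 without WT LPS replicate 10, where Orm2 was at 0.21. The muscle and squamous transcripts found in WT LPS lungs move with this comparison, and their part in it was not tested.

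Between PBS-treated lungs, Saa1, Saa2 and Orm1 had too few counts to be compared. Of the other 7 members, 6 had a log2 fold change below 0 in Adm+/- against WT mice, all but Orm2, with a median of -0.34 against -0.01 over all genes. None of the members and 0% of all genes were called in edgeR, DESeq2 or limma-voom. At an unadjusted p below 0.05 in edgeR there were 2 members and 2.17% of all genes. These were Saa3 at -3.59 (95% interval -6.26 to -0.93) and Lrg1 at -1.29 (-2.56 to -0.01), each with an edgeR adjusted p of 0.999. Without WT PBS replicate 4 they were -0.31 and -0.20, the median of the 7 was -0.19, and 3 of the 7 were above 0.

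**Figure D5:**
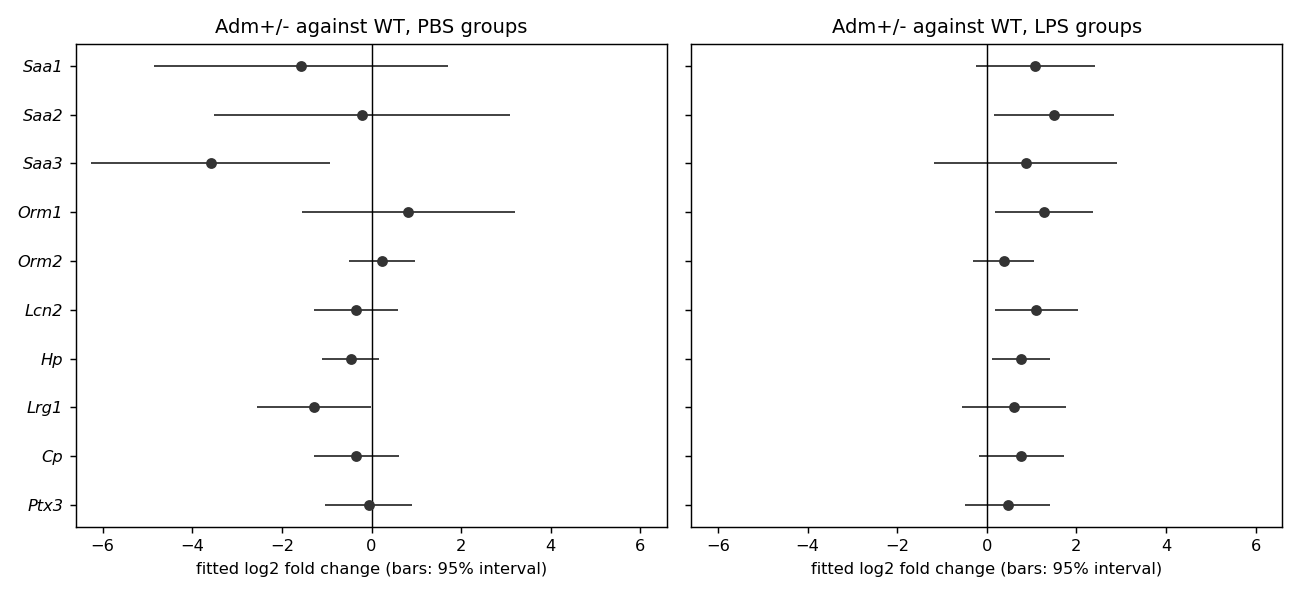
Fitted log2 fold change of each gene between Adm+/- and WT mice (horizontal axis) in the PBS groups (left) and the LPS groups (right). Bars are 95% intervals on 8 residual degrees of freedom. In LPS all 10 points lie above 0, from 0.38 to 1.50, with the intervals of Saa2, Orm1, Lcn2 and Hp clear of 0, and in PBS the Saa3 estimate of -3.59 has the widest distance from 0. The Saa2 value in LPS is a description, as Saa2 passed the filter only with the Adm+/- LPS libraries.

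The spread of the members between mice of a group was above that of the typical gene. The median SD of log2 CPM over the 3 mice was 0.85 for the members and 0.29 for all genes in WT PBS, 0.83 and 0.17 in WT LPS, 0.33 and 0.19 in Adm+/- PBS, and 0.28 and 0.12 in Adm+/- LPS. For 9 of the 10 the SD after LPS was larger in WT than in Adm+/- mice, the exception being Lrg1. WT LPS replicate 11 was the lowest of its group for 9 members, with Saa3 at 0.295, Lcn2 at 0.408 and Hp at 0.456 of the mean of the other WT LPS libraries. Replicate 9 was the highest for 7 and replicate 10 for 3. Replicate 11 had the smallest muscle sum of the group (558 CPM) and a squamous sum between those of the other libraries, and its neutrophil sum of 1832 CPM was above that of replicate 10.

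Other acute phase genes were also mostly higher after LPS. Of 30 further acute phase proteins and companions listed, 27 could be tested, 16 were called higher and 1 lower after LPS in WT mice, and 20 higher and none lower in Adm+/- mice, with median log2 fold changes of 2.03 and 3.18. The shares over all tested genes were 10.5% higher and 7.09% lower in WT, and 12.8% higher and 12.2% lower in Adm+/- mice. WT PBS replicate 4 was high for this list too, at 658 CPM summed, against 318 and 437 CPM in replicates 3 and 5. Serpina3n, a protease inhibitor of the liver acute phase, had 16.8 ± 27.1 and 227 ± 148 CPM in WT PBS and LPS and 0.743 ± 0.466 and 337 ± 75.8 CPM in Adm+/- PBS and LPS (SD, n = 3), so the WT PBS mean was smaller than its SD. Steap4, a metalloreductase, rose by 3.46 in WT and 6.04 in Adm+/- mice on the log2 scale, the interleukin-1 receptor antagonist Il1rn by 3.66 and 4.79, metallothionein Mt1 by 2.88 and 4.20, complement C3 by 1.42 and 1.94, and the LPS-binding protein Lbp by 1.20 and 1.79. Hemopexin (Hpx), which clears haem, was called in Adm+/- mice alone (2.32, against 0.47 in WT), and the difference was not called. The single fall was A2m, a protease inhibitor, at -1.16 in WT. Between the LPS groups 2 were called higher in Adm+/- mice, Itih4 at 1.32 (edgeR adjusted p = 0.0109) and the LPS co-receptor Cd14 at 1.68 (edgeR adjusted p = 0.0159), from 28.1 to 70.4 and from 71.1 to 228 CPM. Over all tested genes 2.05% were called between these groups, in either direction. Of 9 negative acute phase proteins, whose plasma levels fall in inflammation, 8 could be tested and 1 (Gc) was called, higher in WT mice.

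Among 22 inducers and regulators, 11 were called higher in WT and 18 in Adm+/- mice, none lower, with medians of 0.98 and 2.01. Of all tested genes, 10.5% were called higher and 7.09% lower in WT, and 12.8% higher and 12.2% lower in Adm+/- mice. The WT count of inducers was 5 without the PBS libraries of low coding share, and 4 without WT LPS replicate 9 or with the 6 WT libraries alone. In these fits 15.31%, 9.004% and 7.389% of all genes were called in either direction. The inducers and regulators summed to 2322 CPM in WT PBS replicate 4, against 1540 and 1676 CPM in replicates 3 and 5. Il1b, which encodes interleukin-1 beta, rose by 2.87 and 4.79, Tnf by 2.89 and 3.54, the interleukin-6 feedback inhibitor Socs3 by 1.598 and 3.71, and Stat3 by 0.85 and 1.82 in WT and Adm+/- mice. Il6 itself was called in Adm+/- mice at 2.36 and not in WT mice at 0.54, a difference that was not called, and it stayed scarce, with means of 0.107 and 0.178 CPM in WT PBS and LPS and 0.189 and 1.05 CPM in Adm+/- PBS and LPS, while its receptor chain Il6ra rose by 1.45 and 1.31. Of the C/EBP factors, Cebpd was at 1.36 in WT (not called) and rose by 3.44 in Adm+/- mice, Cebpb was at 0.48 (not called) and rose by 1.03, and Cebpa, at -0.45 and -0.52, was called in neither. In LPS-treated lungs 1 gene of the list differed between genotypes, Il11 at -2.08 (edgeR adjusted p = 0.0264), and its mean was at most 0.61 CPM. Of all tested genes 2.05% were called there, in either direction.

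Receptors and partners of the members moved less as a group, with 4 of 15 called higher and 1 lower in WT and 7 higher and 2 lower in Adm+/- mice, and medians of 0.43 in both. Over all tested genes 10.5% were called higher and 7.09% lower in WT, and 12.8% higher and 12.2% lower in Adm+/- mice. The counts called lower are near these shares, and nothing is read from them. P-selectin (Selp), which holds leukocytes to vessel walls, rose from 0.669 to 21.6 CPM in WT and from 0.438 to 81.3 CPM in Adm+/- mice. The serum amyloid A receptor genes Fpr2 and Tlr2 rose by 2.93 and 1.87 in WT and by 3.65 and 2.75 in Adm+/- mice. Heme oxygenase 1 (Hmox1), downstream of haemoglobin uptake, rose by 1.93 and 1.87. Lower after LPS were Heph, the membrane relative of ceruloplasmin, at -0.64 and -0.56, and, called in Adm+/- mice alone, the lipocalin 2 receptor gene Slc22a17, at -0.72 and -1.06, a difference between genotypes that was not called. Cd163, the haptoglobin-haemoglobin receptor of macrophages, was lower in Adm+/- than in WT lungs after LPS, at 2.57 ± 0.28 against 7.43 ± 1.62 CPM (SD, n = 3, log2 fold change -1.53, edgeR adjusted p = 0.00541). After PBS it was at 3.29 ± 0.41 against 5.55 ± 1.24 CPM (-0.75, not called). The 10 monocyte and macrophage markers ranged from -0.81 (C1qa) to 0.09 (Ly6c2) between the LPS groups with a median of -0.42 and none called, and their sums overlapped, at 1658 to 2313 CPM in WT and 1681 to 2219 CPM in Adm+/- lungs. The part of macrophage number in the Cd163 value was not tested. In the same libraries Hp was higher in each Adm+/- LPS library than in any WT LPS library.

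The profile of Saa3 over the 12 libraries was most like those of Xdh (Pearson's r of log2 CPM 0.995), Atp6v0a4 (0.993), Gfpt2 (0.992), Klf15 (0.992) and Csf2rb (0.992) among the tested genes outside the 10. Within the 10, Lrg1 came closest at 0.988, the 21st of all genes, followed by Saa1 and Lcn2 (both 0.973), Hp (0.960), Orm1 (0.945), Saa2 (0.909), Cp (0.889), Orm2 (0.715) and Ptx3 (0.628). These values describe likeness only, since all points share the step between PBS and LPS. After the group means were taken out, r with Saa3 was 0.87 for Lrg1, 0.79 for Saa1 and Saa2, 0.75 for Cp and 0.72 for Lcn2. It was 0.64 for Orm1, 0.53 for Hp, 0.12 for Ptx3 and -0.42 for Orm2.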

How the data were processed

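Whole lung RNA from 12 mice was sequenced after depletion of ribosomal RNA with a directional kit. The authors trimmed the reads (Trim Galore), mapped them to mm10 (HISAT2) and assigned them to Gencode genes (featureCounts). The deposited values are whole-number raw counts, without normalization or filter. The Gencode release and the strand option are not given in the sources used here. Replicate numbers are the library numbers of the labels.

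Software was R 4.3.3, DESeq2 1.42.0, limma 3.58.1 and edgeR 4.0.16. The table holds 21950 protein-coding genes, of which 15885 passed filterByExpr and were TMM-normalized and fitted in 1 edgeR quasi-likelihood model of the 4 groups with 8 residual degrees of freedom, without covariates. A call needed an adjusted p (Benjamini-Hochberg) under 0.05 and a log2 fold change beyond 0.5 in either direction. Log2 CPM used a prior count of 2. Intervals on ratios of counts cover counting error only, as reads carry no molecular identifiers. The labels name each library as a separate sample, and no pair of libraries in a group was within sampling noise. The scripts were tested on simulated data. Gene positions are from Gencode M21, which held 99.7% of the genes, and promoters from RefSeq.

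The 10 members, the gene lists and the marker lists were chosen with earlier results of these data known. Named are all members, listed genes called in an LPS contrast or abundant (up to 8 per list and contrast by smallest p), the 5 genes most correlated with Saa3, Saa4, Orm3 and Adm. Alternatives were RLE size factors, no filter, DESeq2, limma-voom, all annotated genes, each library left out, both PBS libraries of low coding share left out, and only the groups compared.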

Additional observations from a re-analysis of the deposited data

How the results depend on the processing

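The number of members called after LPS in WT mice was 8, between 6 and 8 with single libraries left out, and 5 of 9 tested in a fit of the WT groups alone, which has fewer samples and a filter that dropped Saa2. In Adm+/- mice it was 9 (8 to 10 with single libraries left out). Between genotypes it was 0 in LPS, PBS and for the difference under the alternatives run, except 1 (Orm1, 2.21) in LPS without WT LPS replicate 9. In a fit of the PBS groups alone 7 members passed the filter. Inducers called in WT mice were 11, against 5 without both PBS libraries of low coding share, 4 with the WT groups alone, and 4 to 14 with single libraries left out. Calls over all genes in WT mice were 2791 in the main fit. They were 2465 without both PBS libraries of low coding share and 1152 with the WT groups alone. The cause of these changes was not tested. With limma-voom, Adm+/- against WT in PBS turned to 0.40 for Saa2 and 0.063 for Ptx3, and the Saa3 rise in WT was 7.38. Without both PBS libraries of low coding share, the difference in response turned to -0.22 for Orm2 and the PBS value of Ptx3 to 0.31. With single libraries left out, the difference in response ranged from -1.70 to 2.39 for Saa2, -0.12 to 1.39 for Orm1 and -0.28 to 0.37 for Orm2. The PBS value ranged from -4.71 to 0.63 for Saa1, -0.90 to 3.20 for Saa2, -0.67 to 0.13 for Lcn2, -0.72 to 0.36 for Cp and -0.30 to 0.38 for Ptx3. Saa3 ranged from 1.18 to 5.02 for the difference. Between genotypes, 368 of 377 alternative values of single members kept direction and side of the threshold, 8 reversed and 1 passed it. Of 180 values for the difference, which is described and has no fit of the compared groups alone, 5 reversed. Of 379 values for LPS against PBS, which carry no test, all kept their direction and 10 moved by more than 1 SD. Without WT PBS replicate 4 those of WT mice were 5.89 for Saa1, 6.50 for Saa2, 9.18 for Saa3, 3.73 for Lrg1 and 1.53 for Cp. Saa1 in Adm+/- mice was 9.48 without PBS replicate 7, and Orm2 in WT mice 1.41 without PBS replicate 5 or both PBS libraries of low coding share. No paired analysis was possible because the groups share no replicate numbers. With 3 mice a group, and Saa1, Saa2 and Orm1 at no more than 9 counts in any PBS library, PBS differences of these 3 genes were not detectable at this depth.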
